A study of Homo sapiens with 8 samples.

Results

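The clustered histone genes encode the replication-type histones, and 89 of the 60234 gene rows of the deposited table belong to them. They were taken as every row whose symbol begins with HIST1H, HIST2H, HIST3H or HIST4H, in the older nomenclature, and 24 of them reached a mean of at least 1 CPM (a gene's reads scaled to the library's total over genes) over all 8 libraries. Those 24 were among the 15092 genes tested. All 8 libraries came from Rh41 cells, a human line established from an alveolar rhabdomyosarcoma and positive for the PAX3-FOXO1 fusion. The control group (CTR, labelled as control knockdown) holds 4 libraries, and the siG9a group, in which G9a was knocked down, holds the other 4. G9a is the histone H3 lysine methyltransferase encoded by EHMT2. The sample titles write siG9a, whereas the title of the series writes shG9a, and the labels give no reagent sequence, dose or time. The series describes the replicates as biological, and all come from a single cell line. The question addressed here was how the poly(A)-primed reads of these genes differed between siG9a and control libraries, over groups and by replicate number.

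Replication-type histones package newly made DNA during S phase. H2A, H2B, H3 and H4 form the nucleosome core, and H1, the linker histone, binds where DNA enters and leaves it. Their mRNAs normally end in a conserved stem-loop in place of a poly(A) tail. The stem-loop is bound by SLBP, and the mRNA is cut by a complex that includes the U7 small nuclear RNP. Some of these genes also make polyadenylated transcripts by using a downstream poly(A) signal, which is known from differentiated and from tumour cells. The libraries were made with QuantSeq, which primes cDNA on stretches of A, so the reads report A-tailed or A-rich transcripts and not the main stem-loop-ended pool. A QuantSeq read comes from the end of a transcript, so a gene's CPM does not scale with its length.

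The stem-loop is the feature that sets these mRNAs apart, and it is shown here for 5 members in capitals, with 5 bases on either side. The histone stem-loop consensus was searched on the sense strand of the transcripts of GENCODE release 29, with any base allowed at the variable stem and loop positions.

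HIST1H2AE: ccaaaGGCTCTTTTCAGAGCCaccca
HIST3H2A: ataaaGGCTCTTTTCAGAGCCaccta
HIST1H2BD: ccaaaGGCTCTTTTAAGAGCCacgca
HIST2H2BE: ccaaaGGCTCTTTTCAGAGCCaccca
HIST1H4E: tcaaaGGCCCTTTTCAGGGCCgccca

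The stem-loops of HIST1H2AE, HIST3H2A and HIST2H2BE are identical, and those of HIST1H2BD and HIST1H4E are not. The consensus was found in 13 of the 24 tested members and in 35 of all 89. In 10 of the 24 the longest annotated transcript that holds it went on for over 100 bases beyond it, and 10 of the 24 had AATAAA or ATTAAA in the last 50 bases. Many other models end at or near the stop codon, so a missing match says nothing of the gene. The model of HIST1H1E, for instance, ends inside the stem-loop (its last bases are ccaaaGGCTCTTTTCAGA).

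HIST1H4C, the member with the most reads, has no match to the consensus in its annotated transcript, and its last 30 bases are shown because the kit primes on A. The last 20 are in capitals.

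HIST1H4C: tgagaacttcAAAAAACAAAAACAAAAAAA

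Of those 20 bases, 18 are A (90%). A window of 20 bases with as many occurs somewhere in at least 1 transcript of 6.49% of 57133 annotated genes, and the best windows of the other 23 tested members hold 7 to 15. Whether this stretch took part in priming was not tested.

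Sequence sharing limits some members. All 75-base windows, the length of a read, of HIST1H3D recur in some other gene. So do 60.1% of those of HIST1H2AI, 50.5% of those of HIST1H2BK and 23.7% of those of HIST2H2AC. The counts of these members are therefore uncertain. The genes with the most matches were, in the same order, AL031777.3, HIST1H2AJ, H2BFS and HIST2H2AA3. None of the windows of HIST1H4C, HIST1H1C, HIST1H2AE or HIST1H1D recurs in another gene. Of 8 members whose windows all recur in another gene, 6 were listed at 0 in every library (HIST2H2AA3, HIST2H4A, HIST2H4B, HIST2H3A, HIST2H3C and HIST2H3PS2), as were 35 of all 89 members. Of those 35, 19 had no window that recurs. HIST1H3D overlaps AL031777.3, the gene with most of its matches, on its own strand, so that match need not be a separate copy. HIST2H2AB overlaps BOLA1 on the opposite strand, and HIST1H2BD overlaps LARP1P1 on its own strand and AL353759.1 on the other. HIST1H2BN overlaps HIST1H2AL on its own strand and HIST1H2AK and HIST1H2BPS2 on the other, and HIST2H2BC overlaps HIST2H2BD on the opposite strand. Whether the authors' counting used strand is not given in the sources used here.

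The libraries held 1458825 to 1938665 reads assigned to genes, so that 1 read was worth 0.516 to 0.685 CPM and a floor of 3 reads lay between 1.55 and 2.06 CPM. EHMT2, the knocked-down gene, measured 57.6, 68.1, 87.3 and 88.3 CPM in control replicates 1 to 4 and 19.6, 35.1, 33.1 and 58.5 CPM in siG9a replicates 1 to 4. It was lower in 4 of 4 pairs, with a log2 change of −1.10 (adjusted p = 0.191 without and 0.000472 with the replicate number as a block). Of 9 muscle and rhabdomyosarcoma markers found, all had reads, and their sum ran from 321 to 2016 CPM in control and from 319 to 1556 CPM in siG9a libraries. It was lower in siG9a in 4 of 4 pairs, and with the block 4 of the 9 were called lower (DES, CDH15, CHRNA1 and FGFR4). Both replicate 3 libraries stood apart. MYOD1 measured 95.3 and 128 CPM there against 608 to 864 CPM in the other 6, and NEFM, a neurofilament gene, 8046 and 7625 CPM against 156 to 2498 CPM. The summed neural markers reached 9606 and 8930 CPM in these 2 libraries, and no neural symbol was at 0 everywhere. Fibroblast markers summed to 117 to 398 CPM in control and 52.0 to 312 CPM in siG9a libraries with POSTN at 0, epithelial markers to 10.3 to 75.6 and 23.5 to 43.96 CPM, and blood and endothelial markers to at most 2.74 CPM with CDH5 at 0. With the block 1 fibroblast marker (COL1A1, adjusted p = 0.0410) and 1 epithelial marker (CDH1, adjusted p = 0.0171) were also called lower. Of the 4 epithelial markers tested only CDH1 had a log2 change below 0, and their median was 0.32. The fibroblast sum was lower in siG9a in 3 of 4 pairs. Mitochondrially encoded genes took from 4.59% to 9.18% of control reads and from 5.21% to 13.7% of siG9a reads, and their share was higher in siG9a in each pair. The part of these differences in the histone results was not tested.

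Of the 89 members, 54 had at least 1 read and 35 had none in any library. The 24 tested were 4 of 8 H1 genes, 6 of 22 H2A genes, 7 of 26 H2B genes, 4 of 17 H3 genes and 3 of 16 H4 genes. By cluster they were 19 of 67 in HIST1, 4 of 17 in HIST2, 1 of 4 in HIST3 and 0 of 1 in HIST4. Among 14 pseudogene symbols 1 was tested, HIST1H3PS1. HIST1H2AI (mean 1.22 CPM), HIST1H2BF (1.25 CPM) and HIST2H2BC (1.46 CPM) lay just above the threshold of 1 CPM, and HIST1H2BH (0.979 CPM), HIST1H2AJ (0.953 CPM) and HIST1H2BO (0.953 CPM) just below it.

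The reads were concentrated in 2 genes. Over the 8 libraries 21492 reads fell on members, of which HIST1H4C took 79.6%, HIST1H1C 10.9% and all others 9.54% (2051 reads). By library HIST1H4C took from 72.4% to 86.8% of the members' reads in control and from 75.0% to 78.4% in siG9a. Only 7 members had a mean of 10 CPM or more. Any sum over members therefore follows HIST1H4C, and sums are given with and without it.

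Histone transcripts were lower in siG9a for a few members and for most by a margin within the spread of the libraries. HIST1H4C and HIST1H2AE fell in the fit that pairs libraries by replicate number under all 3 tools used, and HIST1H1D, at a few reads a library, fell under limma only. Without pairing no member passed under any of the tools. Of the 24 members 18 had a log2 change below 0 (75.0%), with a median of −0.48, against 48.9% and a median of 0.01 over all genes tested.

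In numbers, limma called 0 of 24 members at an adjusted p under 0.05 without the block (0% of all 15092 genes, smallest adjusted p = 0.0662). edgeR without the block also called no gene, and DESeq2 without it called 291 genes, none of them a member. At an unadjusted p under 0.05 limma without the block put 6 members lower and 0 higher, where 6.38% of all genes were lower by that measure. With the block limma called 3 of 24 members lower (12.5%) and 0 higher, against 6.52% of all genes called lower. edgeR with the block on the recovered reads called 2 members lower, with 6.59% of all genes lower, and DESeq2 with the block the same 2, HIST1H4C and HIST1H2AE, with 4.19% of all genes lower. The members were also read by level. At a mean of 5 CPM or more 2 of 10 members were called lower, against 8.44% of all genes there, and at 1 to 5 CPM 1 of 14, against 1.58%. With 24 members these counts rest on 3 genes.

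HIST1H4C encodes histone H4, which pairs with H3 at the heart of the nucleosome. It measured 956, 1406, 1321 and 2610 CPM in control replicates 1 to 4 and 480, 787, 1164 and 1116 CPM in siG9a replicates 1 to 4. The control library of replicate 4 was the highest and the siG9a library of replicate 1 the lowest, and the groups overlapped, since siG9a replicates 3 and 4 exceeded control replicate 1. Group means were 1573 ± 718 CPM for control and 887 ± 319 CPM for siG9a (SD, n = 4 each). Within the pairs the siG9a level was 50.2%, 56.0%, 88.1% and 42.8% of its control, lower in 4 of 4. Counting error was small beside these differences: the 95% Wilson interval of the count, as CPM, was 907 to 1007 in control replicate 1 and 450 to 512 in siG9a replicate 1, while in replicate 3 the intervals 1266 to 1378 and 1115 to 1216 lay closer together.

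The log2 change of HIST1H4C was −0.81, with a standard error of 0.34 without the block (adjusted p = 0.360) and 0.15 with it (adjusted p = 0.00108). An exact two-sided permutation test of the 4 against 4 libraries, unpaired, gave p = 0.114. With the block edgeR gave an adjusted p of 0.000633 and DESeq2 0.000232. The call held in 10 of 10 fits with the block, including each that left out 1 pair (adjusted p from 0.000232 to 0.0179), and in 0 of 16 without it (0.226 to 0.656). Without the replicate 3 pair, whose libraries stood apart in their marker genes, the log2 change was −1.02 (adjusted p = 0.00155 with the block), and without the replicate 4 pair it was −0.67 (adjusted p = 0.00826 with the block). Without control replicate 4 alone, the highest library, the unblocked change was −0.53 (adjusted p = 0.656). The plot of levels by library shows the 4 lines of HIST1H4C all falling from control to siG9a from different starting heights.

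**Figure D1:**
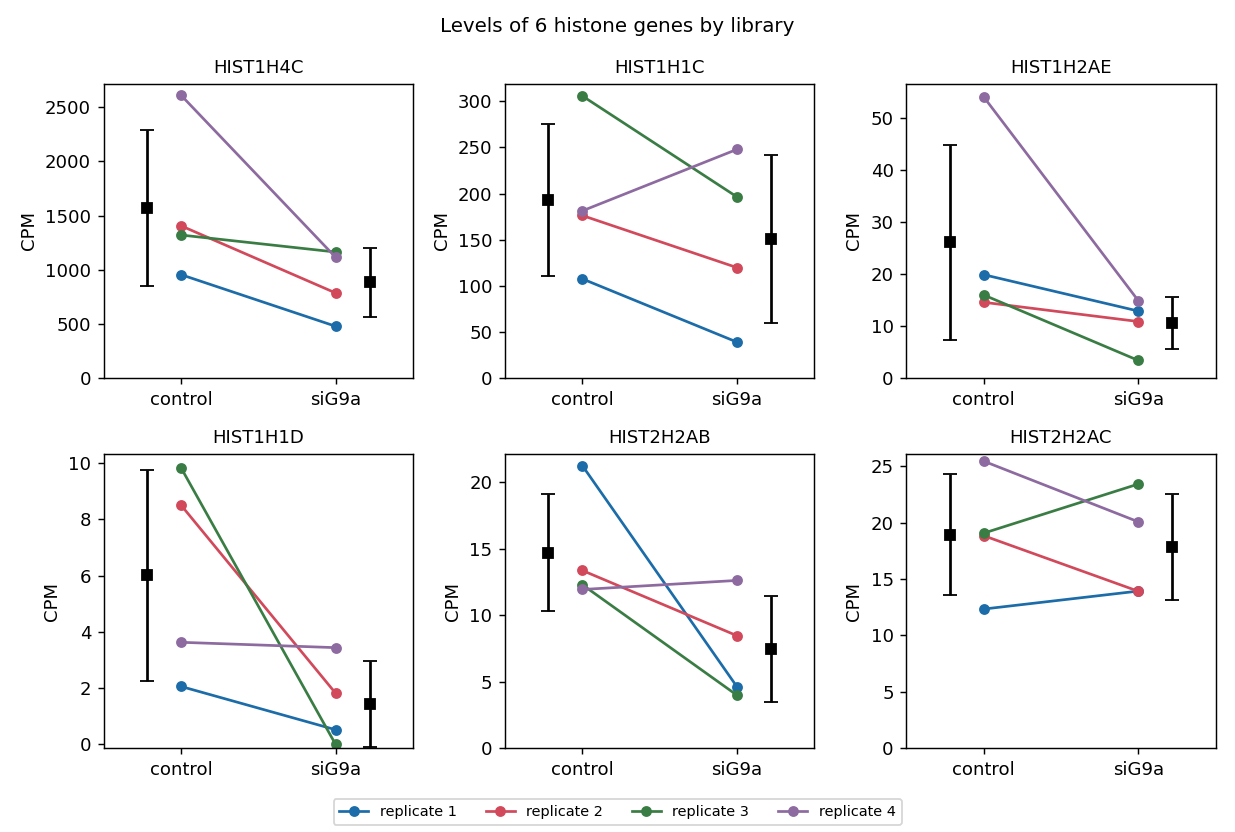
Level of 6 histone genes in CPM (vertical axes, linear, each with its own scale) in control and siG9a libraries. Points are libraries, lines join libraries with the same replicate number, and black squares with bars are group means ± SD (n = 4). All 4 lines fall for HIST1H4C, HIST1H2AE and HIST1H1D, 3 of 4 for HIST1H1C and HIST2H2AB, and 2 of 4 for HIST2H2AC.

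The other H4 genes were far lower. HIST1H4H measured 6.17, 3.65, 3.07 and 11.9 CPM in control and 3.09, 4.24, 5.14 and 2.29 CPM in siG9a replicates 1 to 4, with a log2 change of −0.51 (adjusted p = 0.498 with the block). HIST1H4E measured 4.11, 0.61, 2.46 and 0.52 CPM in control and 4.64, 6.05, 0.57 and 2.87 CPM in siG9a replicates, with a log2 change of 0.62 (adjusted p = 0.466 with the block). Neither was called, and their groups overlapped. Their sum in siG9a was 88.8% of the control mean, a value that moved from 65.8% without the replicate 2 pair to 118% without the replicate 4 pair.

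Among the linker histones HIST1H1C stood highest. It measured 108, 176, 306 and 181 CPM in control replicates 1 to 4 and 39.2, 120, 196 and 248 CPM in siG9a replicates 1 to 4. It was lower in siG9a in 3 of 4 pairs and higher in replicate 4, and the groups overlapped widely (193 ± 82.4 against 151 ± 91.1 CPM, SD, n = 4 each). The log2 change of −0.54 did not pass (adjusted p = 0.705 without and 0.0751 with the block). It depended on single libraries. With the block it was −0.25 without the replicate 1 pair (adjusted p = 0.505) and −0.87 without the replicate 4 pair, where it was called (adjusted p = 0.00423), and without siG9a replicate 1 alone the unblocked change was −0.00040 (adjusted p = 1.00).

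HIST1H1D, another linker histone gene, was counted at 3, 14, 16 and 7 reads in control replicates 1 to 4 and at 1, 3, 0 and 6 reads in siG9a replicates 1 to 4. In CPM these were 2.06, 8.51, 9.84 and 3.63 in control and 0.52, 1.82, 0 and 3.44 in siG9a, and the 0 in siG9a replicate 3 allows up to 1.71 CPM. HIST1H1D was lower in 4 of 4 pairs, though in replicate 4 by 1 read only, and siG9a replicate 4 exceeded control replicate 1. The log2 change of CPM + 1 was −1.57 (adjusted p = 0.296 without and 0.0345 with the block). With the block edgeR did not call it (adjusted p = 0.0588), DESeq2 gave it no adjusted p, and 4 of the 9 fits with the block that gave an adjusted p called it (0.0210 to 0.284). Leaving out the replicate 1, 2 or 3 pair ended the call (0.0566, 0.148 and 0.284).

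HIST1H1E, also a linker histone gene, measured 10.3, 10.3, 20.3 and 15.6 CPM in control and 4.13, 9.68, 16.6 and 12.0 CPM in siG9a replicates. It was lower in 4 of 4 pairs, at 40.2%, 93.7%, 81.6% and 77.3% of its control in replicates 1 to 4. The log2 change of −0.46 did not pass (adjusted p = 0.361 with the block). HIST1H1B measured 2.06, 5.47, 1.84 and 5.19 CPM in control and 3.61, 3.03, 0 and 10.3 CPM in siG9a replicates, with no common direction (log2 change −0.18 in limma and 0.20 in edgeR, both without the block). The 4 H1 genes together summed to 77.2% of the control mean, lower in 3 of 4 pairs.

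The H2A genes, which with H2B form the outer dimers of the core, were spread over 3 clusters. HIST1H2AE measured 19.9, 14.6, 15.99 and 54.0 CPM in control replicates 1 to 4 (29, 24, 26 and 104 reads) and 12.9, 10.9, 3.43 and 14.9 CPM in siG9a replicates 1 to 4 (25, 18, 6 and 26 reads). Control replicate 4 was the highest library by far and siG9a replicate 3 the lowest, and siG9a replicate 4 lay just above the lowest control library, so the groups overlapped. The means were 26.1 ± 18.7 and 10.5 ± 5.01 CPM (SD, n = 4 each), and all 4 pairs were lower in siG9a.

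The log2 change of HIST1H2AE was −1.18, with a standard error of 0.49 without the block (adjusted p = 0.355) and 0.30 with it (adjusted p = 0.0116). The exact unpaired permutation test gave p = 0.0571. With the block edgeR gave an adjusted p of 0.00599 and DESeq2 0.0296. The call depended on the replicate 3 and replicate 4 pairs: without the former the adjusted p was 0.0901 with a log2 change of −0.92, and without the latter 0.101 with −0.97. It held in the other 8 of 10 fits with the block. Without control replicate 4 alone, or siG9a replicate 3 alone, the unblocked change was −0.77 (adjusted p = 0.657 and 0.499).

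HIST2H2AB measured 21.3, 13.4, 12.3 and 11.9 CPM in control and 4.64, 8.47, 4.00 and 12.6 CPM in siG9a replicates 1 to 4. The lowest control library was exceeded only by siG9a replicate 4. The log2 change was −0.98 (adjusted p = 0.337 without and 0.0638 with the block). With the block it was −0.65 without the replicate 1 pair (adjusted p = 0.335) and −1.33 without the replicate 4 pair, where it was called (adjusted p = 0.0329). HIST3H2A, the only tested member of its cluster, measured 8.91, 5.47, 19.1 and 18.2 CPM in control and 7.74, 5.45, 6.28 and 4.01 CPM in siG9a replicates. It was lower in 4 of 4 pairs, though barely in replicate 2, with a log2 change of −0.90 that did not pass (adjusted p = 0.408 without and 0.114 with the block).

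HIST2H2AC, whose mean over all libraries was close to that of HIST1H2AE, showed no such difference. It measured 12.3, 18.8, 19.1 and 25.4 CPM in control and 13.9, 13.9, 23.4 and 20.1 CPM in siG9a replicates, lower in 2 of 4 pairs. Its log2 change was −0.07, with a standard error of 0.25 with the block (adjusted p = 0.896). The levels of HIST1H2AC and HIST1H2AI stayed under 8 CPM in every library, and their log2 changes were 0.16 and 0.19 (neither called). Summed, the 6 H2A genes measured 66.5, 55.3, 71.3 and 113 CPM in control and 49.0, 41.2, 41.1 and 55.1 CPM in siG9a replicates. Every siG9a sum lay below every control sum, though siG9a replicate 4 and control replicate 2 nearly met, and the siG9a mean was 60.9% of the control mean.

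Among the H2B genes none was called. HIST1H2BD measured 7.54, 14.6, 11.7 and 14.5 CPM in control and 9.28, 6.66, 4.57 and 2.87 CPM in siG9a replicates, higher in siG9a in replicate 1 and lower in the others. Its log2 change was −0.99 (adjusted p = 0.337 without and 0.0799 with the block). With the block it was −0.65 without the replicate 4 pair (adjusted p = 0.334) and −1.41 without the replicate 1 pair, where it was called (adjusted p = 0.0277). HIST1H2BC, at 4.80, 5.47, 1.84 and 5.71 CPM in control and 0.52, 1.82, 2.28 and 1.15 CPM in siG9a replicates, had a log2 change of −1.14 (adjusted p = 0.1003 with the block).

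HIST1H2BK followed the replicate number more than the group. It measured 0, 8.51, 33.8 and 10.9 CPM in control and 3.09, 12.1, 21.1 and 10.9 CPM in siG9a replicates, so that replicate 3 was the highest and replicate 1 the lowest in both groups. Its mean was lower in siG9a (13.3 ± 14.5 against 11.8 ± 7.39 CPM, SD, n = 4 each) while its log2 change was 0.46 (adjusted p = 0.487 with the block), and edgeR gave −0.18, so that no direction can be given. HIST2H2BE measured 8.23, 6.68, 3.69 and 2.60 CPM in control and 13.4, 3.03, 6.28 and 2.29 CPM in siG9a replicates, with a log2 change of 0.05 (adjusted p = 0.951 with the block). The 7 H2B genes summed to 70.0% of the control mean, lower in 3 of 4 pairs.

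The H3 genes gave few reads. HIST1H3PS1, a pseudogene by its symbol, measured 1.37, 8.51, 4.30 and 2.60 CPM in control and 3.61, 1.82, 3.43 and 0.57 CPM in siG9a replicates, with a log2 change of −0.56 (adjusted p = 0.482 with the block). HIST1H3H was listed between 0 and 9.22 CPM in control and between 0 and 3.03 CPM in siG9a libraries (log2 change −0.94, adjusted p = 0.271 with the block). HIST1H3A had a log2 change of −0.07 in limma and 0.11 in edgeR, both without the block, and HIST1H3D one of 0.11 in limma, neither called. The sum of the 4 H3 genes was 66.5% of the control mean and rested on 135 reads in all.

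**Figure D2:**
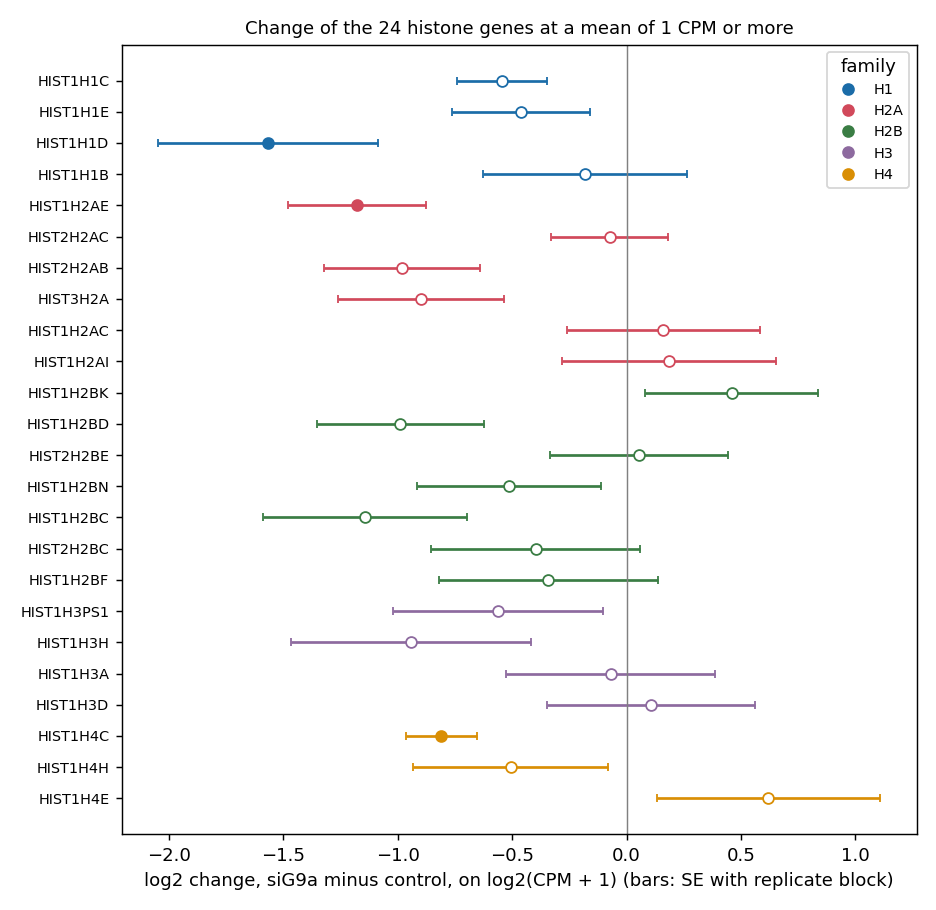
Log2 change of CPM + 1, siG9a minus control (horizontal axis), of the 24 tested histone genes, coloured by family, with bars of 1 standard error from the fit with the replicate block. Filled points have an adjusted p under 0.05 in that fit: HIST1H4C, HIST1H2AE and HIST1H1D, while 18 of the 24 lie below 0.

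Within each of replicates 2, 3 and 4, most members were lower in siG9a, though not always the same ones. In at least 3 of 4 pairs 11 of the 24 were lower, against 5575 of the 15092 genes tested. In replicate 1 the median log2 difference of the 24 members was 0.00, with 11 lower, 12 higher and 1 equal. In replicates 2, 3 and 4 it was −0.48, −0.64 and −0.38, with 18, 16 and 16 members lower and 5, 7 and 7 higher. The median over all genes was 0.07 in replicate 1 and lay between −0.03 and −0.00 in the others. Of all genes 45.1%, 51.1%, 50.5% and 51.7% were lower in replicates 1 to 4. Replicate 1 had the highest mitochondrial shares of its groups (9.18% and 13.7%), whose part was not tested. Members lower in 4 of 4 pairs were HIST1H4C, HIST1H2AE, HIST1H1D, HIST3H2A and HIST1H1E, 5 of 24, where 15.3% of all genes were. No member was higher in 4 of 4, and for 0 of 24 did all siG9a values lie below all control values, where 3.45% of all genes did.

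The summed level of the 24 members was 1191, 1725, 1805 and 2997 CPM in control replicates 1 to 4 and 627, 1009, 1471 and 1477 CPM in siG9a replicates 1 to 4. The siG9a mean was 59.4% of the control mean, and within the pairs the share was 52.6%, 58.5%, 81.5% and 49.3%. Without HIST1H4C the siG9a mean was 72.7% of control. Without HIST1H1C as well, a set chosen after the values were seen, the 22 genes left summed to 128, 143, 179 and 205 CPM in control and 108, 102, 110 and 114 CPM in siG9a replicates. There the siG9a sums lay close together and all below the control sums, at 66.2% of the control mean and between 61.9% and 71.2% with any 1 pair left out. The plot of summed levels shows that only the H2A sum and this sum do not overlap between the groups.

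**Figure D3:**
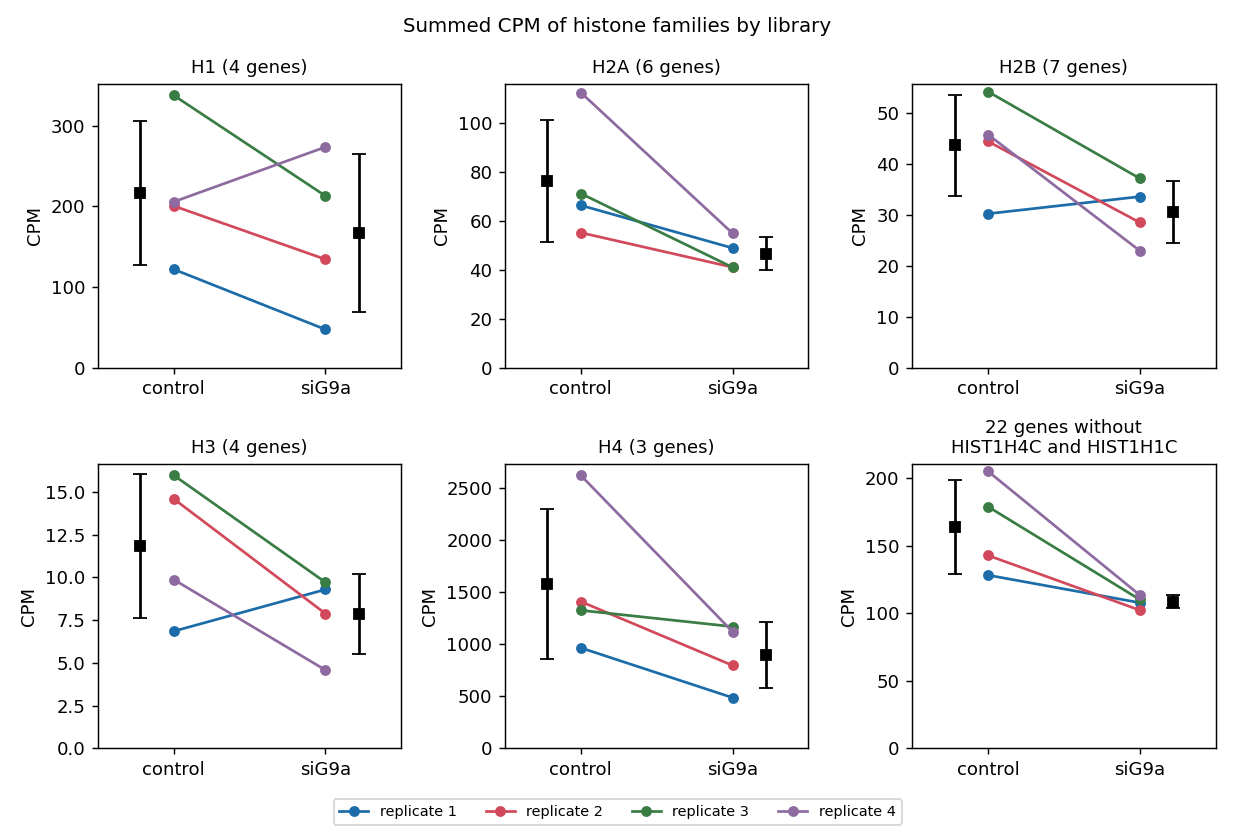
Summed CPM (vertical axes, linear from 0) of the tested H1, H2A, H2B, H3 and H4 genes and of the 22 tested genes without HIST1H4C and HIST1H1C, by library. Points are libraries, lines join libraries of the same replicate number, and squares with bars are group means ± SD (n = 4). The H2A sums lie between 55.3 and 113 CPM in control and between 41.1 and 55.1 CPM in siG9a libraries.

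The 65 members under a mean of 1 CPM held 174 reads in all. HIST1H2AG, an H2A gene, had 0, 5, 6 and 1 reads in control replicates and 0 in all 4 siG9a libraries, and HIST1H3I, an H3 gene, had none in the control libraries and 3.09 and 2.29 CPM in siG9a replicates 1 and 4. Both were chosen after their values were seen and are too low to compare at this depth.

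The promoters of the members were read from RefSeq (GRCh38.p14), where 61 of 89 members and 19 of 24 tested members had an entry. The 250 bases before the start are shown for HIST1H1C, the highest linker histone, and for HIST1H2AE and HIST1H1D, which fell with the block. HIST1H4C has no entry. Capitals mark the TATA box as TATAAA, the NF-Y element as CCAAT, the H1 box as AAACACA and the octamer bound by POU2F1 as ATTTGCAT, each searched on both strands.

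HIST1H1C, chr6:26056471-26056720, minus strand
HIST1H1C: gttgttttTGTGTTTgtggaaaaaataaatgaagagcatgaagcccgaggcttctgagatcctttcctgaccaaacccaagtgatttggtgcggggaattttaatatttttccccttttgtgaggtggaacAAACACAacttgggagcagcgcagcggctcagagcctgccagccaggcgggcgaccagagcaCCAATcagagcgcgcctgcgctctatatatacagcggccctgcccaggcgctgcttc
HIST1H2AE, chr6:26216671-26216920, plus strand
HIST1H2AE: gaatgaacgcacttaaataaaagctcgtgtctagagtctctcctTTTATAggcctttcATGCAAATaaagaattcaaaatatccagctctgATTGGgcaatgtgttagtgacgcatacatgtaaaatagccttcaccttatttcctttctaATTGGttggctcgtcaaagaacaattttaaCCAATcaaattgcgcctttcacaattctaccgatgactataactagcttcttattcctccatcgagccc
HIST1H1D, chr6:26234988-26235237, minus strand
HIST1H1D: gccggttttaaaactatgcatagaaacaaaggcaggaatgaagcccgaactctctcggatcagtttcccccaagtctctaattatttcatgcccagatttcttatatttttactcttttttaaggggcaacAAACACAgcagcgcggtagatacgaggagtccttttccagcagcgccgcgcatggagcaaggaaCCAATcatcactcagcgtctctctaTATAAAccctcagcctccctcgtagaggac

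The HIST1H2AE window holds the octamer and 3 CCAAT matches, and both H1 windows hold the H1 box and CCAAT. The H1 box was found in 6 of 6 H1 promoters, in 0 of the 55 other member promoters and in 4.95% of 27305 promoters of the same length. ATTTGCAT was found in 11 of 16 H2A and 9 of 13 H2B promoters, 1 of 13 H3 and none of the H1 or H4 promoters, against 1.66% of all. CCAAT was in all H1, H2A, H2B and H3 promoters and in 3 of 13 of H4, against 33.0% of all, and TATAAA in 41 of 61, against 11.1%. The matches are a description of these windows, and their part in the levels was not tested.

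Genes that act on or with these histones were followed as lists. limma called 0 of the 123 list genes without the block (DESeq2 called 2), and the counts that follow are from the fit with it, in which 6.52% of all genes were called lower and 4.86% higher. Of 12 replication-independent histone genes tested, most of which are expressed outside S phase and have ordinary poly(A) tails, 0 were called and the median log2 change was −0.12. H3F3B measured 839 to 960 CPM in control and 740 to 1054 CPM in siG9a libraries, with a log2 change of 0.05, and H2AFZ 543 to 784 and 489 to 1002 CPM, with a log2 change of 0.28 (adjusted p = 0.266). H2AFX, which makes both a stem-loop and a poly(A) form, had a log2 change of −0.08, and H3F3A, whose reads may be split with a copy, −0.35. None of these 4 was called.

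Of 30 genes of histone pre-mRNA processing and transcription 2 were called lower and 1 higher, with a median log2 change of 0.04. SLBP, which binds the stem-loop, measured 37.0, 24.3, 38.7 and 28.6 CPM in control and 71.7, 36.9, 56.5 and 51.0 CPM in siG9a replicates 1 to 4. It was higher in siG9a in 4 of 4 pairs, with overlap of the groups, and rose by 0.72 on the log2 scale with the block (adjusted p = 0.0155, and 0.300 without the block). CSTF2, a cleavage stimulation factor, changed by −0.90 (adjusted p = 0.0465) and NCBP2, of the cap-binding complex, by −0.52 (adjusted p = 0.0292). With the block edgeR and DESeq2 did not call CSTF2 (adjusted p = 0.0502 and 0.138), and DESeq2 did not call NCBP2 (0.0569). NPAT, the coactivator of histone gene transcription, changed by 0.24 and was not called (adjusted p = 0.482).

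Of 25 histone chaperone genes 2 were called lower (SET at −0.45 and IPO4 at −0.65, log2) and 1 higher (ANP32A at 0.70), with a median of 0.03, and DESeq2 with the block did not call IPO4 (adjusted p = 0.0927). Of 32 S phase genes 2 were called lower and 4 higher, with a median of 0.14. TK1, thymidine kinase, measured 92.5, 100, 113 and 123 CPM in control and 70.7, 56.9, 61.7 and 49.3 CPM in siG9a replicates, all siG9a libraries below all control libraries (log2 change −0.84, adjusted p = 0.00220 with the block). FEN1, the flap endonuclease, went the other way, at 49.3 to 69.5 CPM in control and 92.6 to 140 CPM in siG9a libraries (log2 change 0.94, adjusted p = 0.000653 with the block). MCM4, a helicase subunit, changed by −0.50 and CDK2 by 0.52, the latter not called by DESeq2 with the block (adjusted p = 0.0722). RFC4 and RRM1, also called higher, were not called by DESeq2 with the block either (adjusted p = 0.0928 and 0.0606). edgeR with the block did not call RFC4 (adjusted p = 0.0576). The summed level of the 32 genes ran from 2885 to 4082 CPM in control and from 3149 to 4178 CPM in siG9a libraries. This sum was lower in siG9a in 1 of 4 pairs. Cell cycle phase itself was not measured, and its part in the histone levels was not tested.

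The last list holds 25 tested non-histone genes that lie in or beside the HIST1 cluster on chromosome 6. There 0 were called lower and 3 higher, and 7 of 25 had a log2 change below 0, with a median of 0.35. ABT1 measured 24.9 to 76.3 CPM in control and 59.8 to 139 CPM in siG9a libraries (log2 change 0.89, adjusted p = 0.00259 with the block). ZSCAN31 and BTN3A1, both at under 10 CPM, changed by 1.63 and 1.43 on the log2(CPM + 1) scale. With the block edgeR called ZSCAN31 (adjusted p = 0.0281) but not BTN3A1 (0.0931), and DESeq2 gave neither an adjusted p. The median of these neighbours thus lay above that of all genes (0.01) and that of the 24 histone genes (−0.48) below it, as the plot of changes by list shows.

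**Figure D4:**
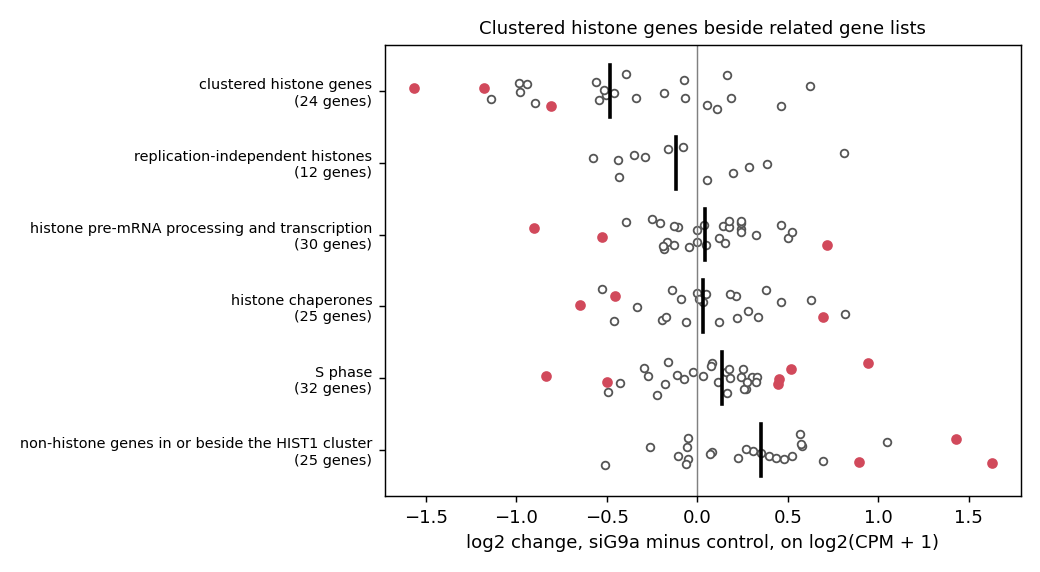
Log2 change of CPM + 1, siG9a minus control (horizontal axis), of the tested histone members and of 5 other gene lists, with 1 point a gene and a bar at each median. Filled points have an adjusted p under 0.05 with the replicate block. The medians are −0.48 for the histone members and 0.35 for the non-histone genes in or beside the HIST1 cluster.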

How the data were processed

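RNA of 4 control and 4 siG9a samples of Rh41 was extracted with TRIzol and sequenced as QuantSeq 3′ libraries with single-end 75-base reads on a NextSeq500, per the labels' protocols. FastQC 0.11.8, Trim Galore, STAR 2.5.0a, HTSeq 0.8.0 and edgeR 3.28 and the builds GRCh38 and hg19 are named in the submitters' processing notes, without roles, and the annotation is not given in the sources used here. The deposited table holds CPM to 2 decimals per the file header. In every library 100% of the values were whole multiples of 1 read within 0.006 CPM, so reads were recovered.

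Groups were compared on log2(CPM + 1) with limma 3.58.1 under R 4.3.3 (lmFit, eBayes with trend, two-sided) for the 15092 genes whose mean reached 1 CPM, Benjamini-Hochberg adjusted over all of them, with a threshold of 0.05. Fold changes are on that scale, which understates low genes. The alternative with the replicate number as a block is given beside it. Same-numbered libraries deviated together (correlations 0.500, 0.104, 0.673 and 0.130 across genes, each over 0.1). Control replicate 2 with siG9a replicate 4 reached 0.144, and control replicate 4 with siG9a replicate 2 reached 0.0913. The correlations therefore set the numbering apart for replicates 1 and 3 but not for 2 and 4. The pairing comes from the titles, which do not explain the numbers. edgeR 4.0.16 (quasi-likelihood, TMM) and DESeq2 1.42.0 were run on the recovered reads. The remaining alternatives changed the pseudocount to 0.1 or 5, the filter to none or 5 CPM, or the scaling to median ratios, or left out each library or pair. Wilson intervals (95%) and the floor of 3 reads cover counting error only.

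The members and lists were chosen with earlier results of these data known. Members described singly were those called in either fit, those without overlap, the 10 highest, and the highest of any family or cluster with none; in each list, at most 4 called genes and a few chosen by name. Other members and list genes were added after their values were seen. Transcripts of GENCODE release 29 were matched by symbol (all 89 members found; 52 identifiers matched too) and promoters came from RefSeq. The scripts were tested on simulated data.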

Additional observations from a re-analysis of the deposited data

Results flagged for a closer look

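In 42 sets of 4 libraries of the same group, for named members and sums, 1 library stood apart by Dixon's 95% criterion in 2, where chance gives about 1 in 20. HIST1H2AE measured 54.0 CPM in control replicate 4 and 14.6 to 19.9 CPM in the other control libraries. HIST2H2AB measured 21.3 CPM in control replicate 1 and 11.9 to 13.4 CPM in the others. Without control replicate 4 the log2 change of HIST1H2AE was −0.77 in the fit without the block, and without control replicate 1 that of HIST2H2AB was −0.80 (neither called).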

How the results depend on the processing

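With no block limma called 0 of 15092 genes and 0 of 24 members (1880 and 6 at an unadjusted p under 0.05), and 0 of 123 list genes. The replicate block gave 1717 genes, 3 members and 15 list genes, and edgeR with it 1709, 2 and 12. DESeq2 called 291 genes and 2 list genes, and with the replicate block 969 genes, 2 members and 7 list genes. No filter on low values gave 18 genes, and a median of −0.19 over 54 members, against −0.68 to −0.28 in all other settings. Leaving out 1 library without the block gave 0 to 300 genes (300 without control replicate 3, with 1 list gene, and 2 without siG9a replicate 4). Leaving out 1 pair in the fit with the replicate block gave 951, 668, 1078 and 1393 genes for pairs 1 to 4, with 1 to 4 members and 4 to 8 list genes. Settings with the replicate block added after seeing the data gave 1692, 3 and 16 for median-ratio scaling, 1363, 2 and 11 for a pseudocount of 0.1, and 1710, 3 and 14 for one of 5. The sum over the 24 members and the sum without HIST1H4C stayed below control with any 1 library left out and with median-ratio scaling. The sum of the H4 genes without HIST1H4C did not keep its direction, at 118% of control without pair 4. Of the 12 members described by the naming rule, direction changed for 3, which no setting called. HIST1H2BK (0.46) was −0.18 with edgeR and with DESeq2, lay between −0.54 (without control replicate 1) and 1.17 with 1 library left out, and was −0.064 with the replicate block without pair 1. HIST2H2BE (0.05) lay between −0.36 and 0.35 with 1 library left out, below 0 without control replicate 3 or 4 or siG9a replicate 1 or 3, and was −0.14 with the block without pair 1 or pair 3. HIST2H2AC (−0.07) lay between −0.25 and 0.077 with 1 library left out, above 0 without control replicate 4 or siG9a replicate 1 or 2, and with the block was 0.039 without pair 2 and 0.011 without pair 4. The causes were not tested. With 1 read worth over 0.5 CPM, members under about 5 CPM rest on a few reads.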
